A study of Mus musculus with 18 samples.

Results

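The EGF family ligands are the growth factors that bind receptors of the epidermal growth factor (EGF) receptor family. Here they were Egf, Tgfa, Areg, Hbegf, Btc, Ereg, Nrg1 and Nrg4, 8 of the 28919 genes on the arrays, taken with every probe of each by gene name, older symbols included. They held 12 of 41174 probes. Expression was measured on 2-colour Agilent oligonucleotide arrays in 9 RNA samples from female mice of the inbred strain FVB/N, each from whole flash-frozen mammary tissue or tumour. There were 2 normal mammary glands, 2 pools of 5 NIC tumours each, and 5 single tumours of mice with the ErbB2 knock-in genotype, called KI. The series title places them in work on β-catenin in mammary tumours driven by ErbB2, a receptor of this same family. The labels do not spell out NIC, and they give no promoter, age or stage for any group. A pool averages its tumours, so the spread between the NIC pools is not that between single tumours.

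Each RNA was hybridised on 2 arrays with the dyes exchanged, always against the same commercial mouse reference RNA. A level below is log2 of sample over reference, the mean of that dye pair. A level of 0 means as much of the transcript as in the reference, so levels can be compared between samples but not between genes. Differences were tested with limma (two-sided, Benjamini-Hochberg adjustment over the 28919 genes), and those with an adjusted p below 0.05 are referred to as called. The value of a gene is that of its brightest probe unless another is named.

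EGF, TGF-α and amphiregulin bind the EGF receptor, whereas HB-EGF, betacellulin and epiregulin bind both that receptor and ErbB4. Neuregulins bind ErbB3 or ErbB4. ErbB2 has no known ligand of its own and signals as the partner of a ligand-bound relative. All these ligands are made as membrane-bound precursors, and proteases of the ADAM family cut most of them free. In the mammary gland amphiregulin is the ligand that estrogen induces during growth of the ducts.

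Areg, Ereg and Btc lie side by side on mouse chromosome 5, in the order Epgn, Ereg, Areg, Btc. The other members lie on other chromosomes. A promoter sequence of 250 bases before the gene's start was at hand for 5 of the 8 members (RefSeq, build GRCm38.p6). Those of Areg, Egf and Tgfa are shown because Areg and Egf had the largest differences between NIC tumours and normal gland, in opposite directions, and Tgfa differed from normal gland in both kinds of tumour. Capitals mark a cyclic AMP response element (CRE), searched as TGACGTCA on both strands. The sequence of Areg covers chr5:91139349-91139598 on the plus strand, that of Egf chr3:129755323-129755572 on the minus strand, and that of Tgfa chr6:86194972-86195221 on the plus strand.
Areg: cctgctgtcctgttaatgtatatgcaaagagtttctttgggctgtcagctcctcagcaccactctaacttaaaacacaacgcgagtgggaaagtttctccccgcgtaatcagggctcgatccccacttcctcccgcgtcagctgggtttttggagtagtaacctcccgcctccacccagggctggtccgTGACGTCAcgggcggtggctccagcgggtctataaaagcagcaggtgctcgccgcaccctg
Egf: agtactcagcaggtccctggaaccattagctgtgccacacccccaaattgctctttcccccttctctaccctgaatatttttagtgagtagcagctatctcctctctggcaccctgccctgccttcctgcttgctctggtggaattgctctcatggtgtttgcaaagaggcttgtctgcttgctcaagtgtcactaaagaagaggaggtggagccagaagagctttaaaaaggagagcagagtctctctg
Tgfa: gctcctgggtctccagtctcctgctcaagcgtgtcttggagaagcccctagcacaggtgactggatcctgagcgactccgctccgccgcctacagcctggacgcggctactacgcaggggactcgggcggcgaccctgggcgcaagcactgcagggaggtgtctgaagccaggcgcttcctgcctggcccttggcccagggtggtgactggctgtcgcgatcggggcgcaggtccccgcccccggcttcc

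The Areg promoter held 1 CRE, which began at position −61 from the start, and the same letters occur in 1.55% of 32851 promoter sequences of this length. The GC box GGGCGG, searched the same way, occurred 1 time in the Areg sequence and 2 times in the Tgfa sequence, against 32.74% of all promoters. No CRE or GC box was found in the sequences of Egf, Btc and Nrg4. Neither TGANTCA, the AP-1 motif (6.75% of all promoters), nor GGAATG, the TEAD motif (12.64%), occurred in any of the 5. These matches describe letters in a window and say nothing of binding.

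All 12 member probes were marked well above background in both channels on 10 of 10 KI arrays, with none saturated. On average over these arrays and channels, the same mark was given to 97.1% of all probe spots and 2.44% of negative control spots. Some members were dim. Relative to the median negative control, the median tumour signal ran from 2.2 for the second Ereg probe to 32 for Hbegf. It was 3.6 for Egf, and Areg read 1.8 on its lowest array. The corresponding marks of the normal and NIC arrays were not used here. By marker lists, the normal glands were rich in fat: the median level of 13 adipocyte genes was 3.60 and 3.88 there and 0.35 or lower in every tumour sample. The median of 11 luminal epithelial genes was 0.52 and 0.98 in the normal glands and 2.56 to 3.34 in the tumours. In such bulk samples, fewer cells of a type and less RNA per cell cannot be told apart. KI tumour 2 stood apart from the other KI tumours by its marker lists. The median of 6 skeletal muscle genes was 1.23 in it and −0.73 or lower in the other 4, and the median of 7 neutrophil genes was 0.010 in it and 1.21 to 3.80 in the others. Differences and spreads of the ligands that rest on it are therefore given with and without it. KI arrays and the other arrays come from separate value tables, filed under separate platform records. Table, platform record and KI group therefore cannot be told apart.

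In NIC tumours, Egf and Tgfa rose above normal gland while Areg fell. Hbegf also rose, and Btc and Nrg4 fell, by smaller amounts. In all, 6 of the 8 ligands were called in NIC against normal, 3 higher and 3 lower. Of all genes, 18.6% were called there, 8.79% higher and 9.81% lower. In KI tumours 3 of 8 were called against normal: Hbegf and Tgfa rose and Nrg4 fell. Of all genes, 42.7% were called, 17.8% higher and 24.9% lower. Between KI tumours and NIC pools 1 of 8 was called, Egf, which was lower in KI. Of all genes, 6.21% were called, 2.93% higher and 3.28% lower. The median difference of the 8 ligands was −0.27, −0.18 and 0.21 in these comparisons, and that of all genes was −0.057, −0.026 and 0.0035. NIC against normal and KI against normal share the 2 normal glands, and the KI comparisons share the KI tumours.

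**Figure D1:**
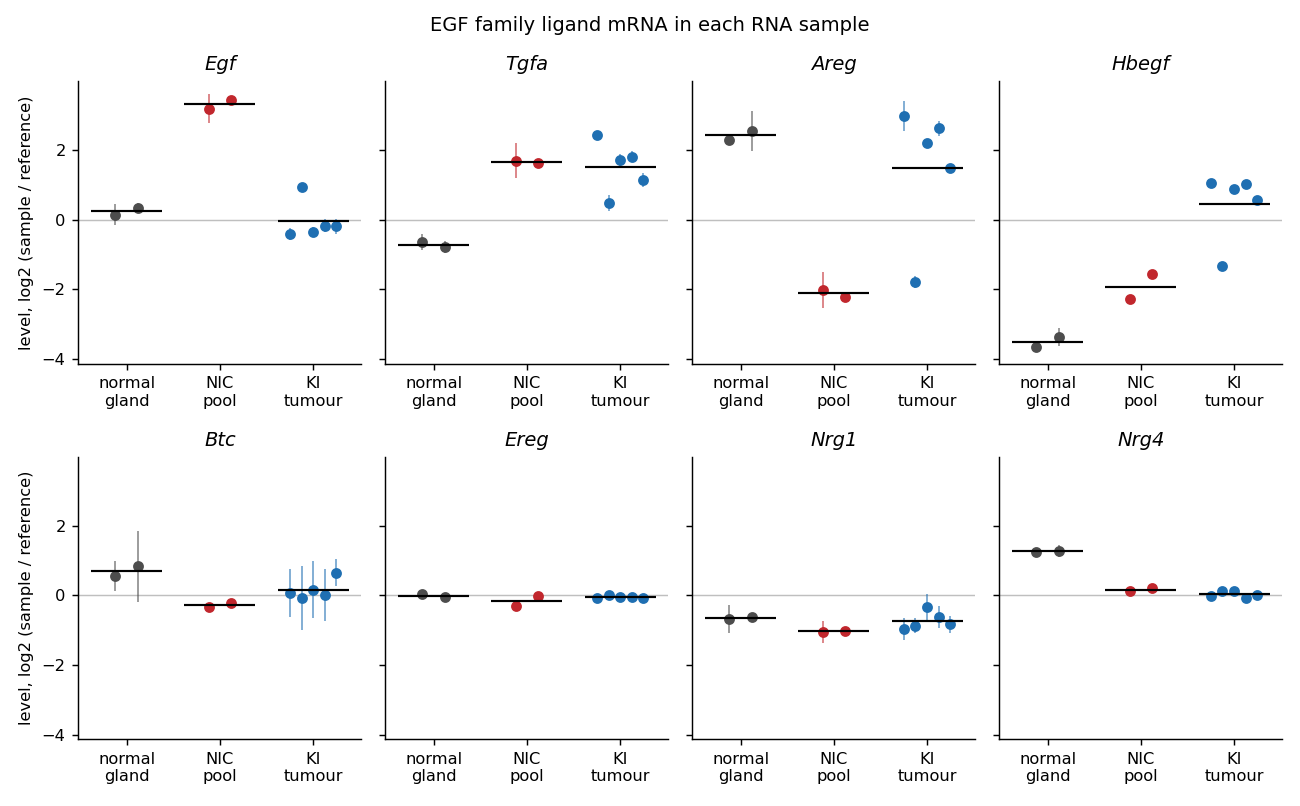
Level of each ligand (log2 of sample over reference) in 2 normal glands, 2 NIC pools and 5 KI tumours. Points are RNA samples, thin vertical lines join the arrays of the dye pair, and black bars are group means. Egf is high in the NIC pools alone, Areg is low in both NIC pools and in KI tumour 2 (second KI point), and the dye pairs of Btc lie far apart in most samples.

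Egf, the ligand that gave the family its name, stood at 0.15 and 0.34 in the normal glands. Its levels were 3.19 and 3.44 in the NIC pools. The KI tumours 1 to 5 read −0.41, 0.93, −0.35, −0.17 and −0.18. Both NIC pools were thus above every other sample, and the ranges of KI tumours and normal glands overlapped. Egf was 8.40-fold higher in NIC than in normal gland (log2 difference 3.07 ± 0.15 SE, n = 2 and 2, limma adjusted p = 0.00828). It was 10.2-fold lower in KI than in NIC (−3.35 ± 0.35, n = 5 and 2, adjusted p = 0.00403). Between KI and normal it differed by −0.28 ± 0.35 (95% interval −1.09 to 0.53, adjusted p = 0.553). Without KI tumour 2 that difference was −0.52 and was called (adjusted p = 0.0129), and the difference from NIC was −3.59. The mean levels therefore ran from NIC down to normal and then KI, and whether KI and normal differed beyond their spread depended on 1 tumour.

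Areg encodes amphiregulin. Its levels were 2.30 and 2.55 in the normal glands. They were −2.03 and −2.21 in the NIC pools. In KI tumours 1 to 5 they were 2.98, −1.80, 2.19, 2.63 and 1.48. Of these 5 tumours, 4 were thus near the normal glands and KI tumour 2 was near the NIC pools. Its level lay above both, but the step to NIC pool 1 was smaller than the gap between that pool's arrays (1.03). Areg was 23.4-fold lower in NIC than in normal gland (−4.55 ± 0.14 SE, n = 2 and 2, adjusted p = 0.00776), the largest difference of any ligand in that comparison. Against the NIC pools the KI mean was higher by 3.62 ± 1.18 (adjusted p = 0.125) and was not called. Without KI tumour 2 that difference was 4.44 and was called (adjusted p = 0.00512). Tumour 2 was the lowest KI tumour, so leaving it out, a setting chosen after seeing the data, raises this difference by construction. The difference was called in 3 of 19 alternatives. Between KI and normal, Areg differed by −0.93 ± 1.18 (95% interval −3.69 to 1.83, adjusted p = 0.565), and by −0.10 without KI tumour 2. That difference was 0.15, of opposite sign, when all arrays were scaled to 1 spread.

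Tgfa encodes TGF-α, a ligand that drives mammary tumours when overproduced in mice. It stood at −0.64 and −0.80 in the normal glands. The NIC pools read 1.69 and 1.62. The KI tumours 1 to 5 read 2.42, 0.48, 1.71, 1.81 and 1.14. Every tumour sample was above both normal glands, and the KI range enclosed the NIC pools. Tgfa was 5.18-fold higher in NIC (2.37 ± 0.11 SE, adjusted p = 0.00828) and 4.70-fold higher in KI (2.23 ± 0.45, adjusted p = 0.00666) than in normal gland. KI and NIC differed by −0.14 ± 0.45 (95% interval −1.20 to 0.92, adjusted p = 0.900). Without KI tumour 2 the difference of KI from normal was 2.49 (adjusted p = 0.00192) and that from NIC 0.12. A second Tgfa probe did not follow: it lay between −0.45 and 0.37 in all 9 samples and differed by −0.28 ± 0.22 in NIC and by −0.059 ± 0.22 in KI against normal (adjusted p = 0.413 and 0.849 over all 41174 probes, of which 18.4% and 42.2% were called). The rise of Tgfa is thus a reading of 1 of its 2 probes.

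Hbegf encodes heparin-binding EGF, which cells shed in response to stress and which also acts on neighbours while still in the membrane. Its levels were −3.66 and −3.38 in the normal glands. They were −2.29 and −1.55 in the NIC pools. In KI tumours 1 to 5 they were 1.04, −1.34, 0.89, 1.03 and 0.57. The 3 groups did not overlap, and normal gland was the lowest. KI tumour 2 was again nearest to the NIC pools. Hbegf was 15.5-fold higher in KI than in normal gland (3.96 ± 0.64 SE, adjusted p = 0.00266), the largest difference of any ligand in that comparison. Without KI tumour 2 it was 4.40 (adjusted p = 0.000169). In NIC it was 3.02-fold higher than in normal gland (1.60 ± 0.31, adjusted p = 0.0481). This last call was lost in 10 of 13 alternatives, and with all arrays scaled to 1 spread the difference shrank to 0.21 (adjusted p = 0.701). KI exceeded NIC by 2.36 ± 0.64, which was not called (adjusted p = 0.0774), and by 2.80 without KI tumour 2, which was called (adjusted p = 0.00496). Tumour 2 was the lowest KI tumour for Hbegf too, so leaving it out raises this difference by construction. The difference of KI from NIC was called in 4 of 19 alternatives.

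**Figure D2:**
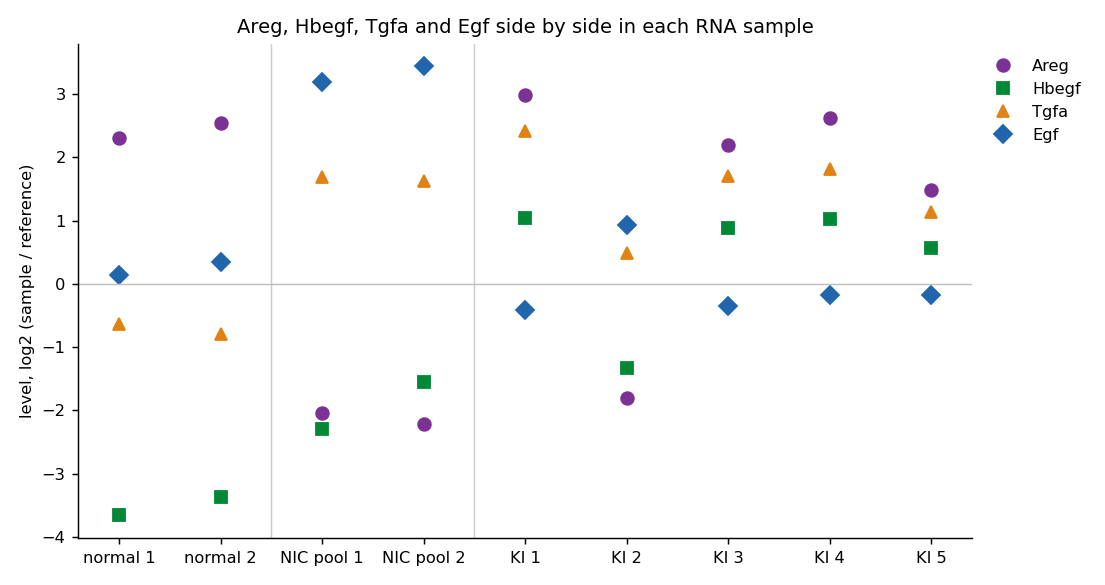
Levels of Areg, Hbegf, Tgfa and Egf (log2 of sample over reference, vertical axis) in each of the 9 RNA samples (horizontal axis). In KI tumour 2 Areg, Hbegf and Tgfa are lowest and Egf is highest of the KI tumours. Height compares samples for 1 gene, not genes with each other.

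Among the KI tumours, these ligands kept the same order: Areg, Hbegf and Tgfa were each highest in tumour 1, then in tumours 4, 3 and 5, and lowest in tumour 2. Some steps of that order were smaller than the gap between the arrays of either dye pair: tumours 1 and 4 for Areg and Hbegf, and tumours 4 and 3 for Hbegf and Tgfa. Egf was highest in tumour 2 and lowest in tumour 1. Tumours 1 and 3 read −0.41 and −0.35 for Egf, a step smaller than the gaps of their dye pairs (0.33 and 0.27). The SD over the 5 tumours was 1.93 for Areg, 1.01 for Hbegf, 0.73 for Tgfa and 0.55 for Egf, against a median of 0.15 over all genes. By this SD Areg lay at percentile 99.9 of all genes, Hbegf at 97.7, Tgfa at 94.9 and Egf at 90.8. Without tumour 2, a setting chosen after seeing the data, the SD over the other 4 tumours was 0.65 for Areg (percentile 94.9), 0.52 for Tgfa (91.7), 0.22 for Hbegf (66.6) and 0.12 for Egf (44.9), against a median of 0.14. The spread of Hbegf and Egf thus came mostly from 1 tumour. Over all 5 tumours Btc, Nrg1, Nrg4 and Ereg had SDs of 0.29, 0.25, 0.089 and 0.035. In tumour 2 the median of 10 macrophage and myeloid genes was 1.39 (2.38 to 2.83 in the other KI tumours) and that of 10 fibroblast genes was −1.05 (−0.24 to 0.65). The NIC pools, where Areg was low as well, had medians of 2.61 and 2.53 for the macrophage list, −0.048 and 0.012 for the neutrophil list and −0.42 and −1.36 for the fibroblast list. The median of 8 endothelial genes was 3.35 and 3.37 in the normal glands, 0.94 and 0.24 in the NIC pools, 0.73 in KI tumour 2 and 1.40 to 2.25 in the other KI tumours. The part of these cell types in the ligand levels was not tested. By its brightest probe Erbb2 itself read 0.70 in tumour 2 and 0.30 to 1.01 in the other KI tumours. Another Erbb2 probe had a larger SE in KI against normal (0.54, against 0.20 for the brightest). Its levels in single tumours are not given here.

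Btc encodes betacellulin. By its brightest probe the normal glands read 0.56 and 0.83. The NIC pools read −0.33 and −0.21. The KI tumours 1 to 5 read 0.068, −0.084, 0.16, 0.011 and 0.65. The NIC pools were below all other samples, and KI tumour 5 fell among the normal glands. Btc was lower in NIC than in normal gland by 0.97 ± 0.14 SE (adjusted p = 0.0314), a call lost in 7 of 12 alternatives. The arrays of its dye pairs differed by 0.78 to 2.06 in the KI and normal samples, set against this group difference of 0.97. The second Btc probe went the other way: −0.062 and −0.42 in the normal glands, 1.06 and 0.29 in the NIC pools and −0.14 to 0.88 in the KI tumours. It differed by 0.92 ± 0.33 in NIC and by 0.75 ± 0.31 in KI against normal (adjusted p = 0.139 and 0.0874 over all probes). By the brightest probe KI differed from normal by −0.54 ± 0.19 (adjusted p = 0.0594), which was not called. Without KI tumour 5, the highest KI tumour, that difference was −0.66 and was called (adjusted p = 0.0056), but leaving out the highest tumour deepens it by construction. Of 18 alternatives, the difference stayed uncalled with the same sign in 14, was called in 3 and turned sign in 1. For Btc the direction thus depended on the probe.

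Ereg, which encodes epiregulin, has 2 probes as well. Its brightest probe lay between −0.30 and 0.034 in all 9 samples and was called in no comparison. The other probe read −3.43 and −3.41 in the normal glands. It read −3.83 and −3.94 in the NIC pools. In KI tumours 1 to 5 it read −2.95, −3.13, −2.99, −2.82 and −3.24, so the 3 groups did not overlap. By that probe Ereg was higher in KI than in NIC by 0.86 ± 0.11 SE (adjusted p = 0.0075) and than in normal gland by 0.40 ± 0.11 (adjusted p = 0.0256), in the test of all 41174 probes, where 6.99% and 42.2% were called. NIC and normal differed by −0.47 ± 0.10 (adjusted p = 0.059). All 9 samples were thus well below the reference by this probe. On the KI arrays its median tumour signal was only 2.2 times the median negative control, and its median reference signal 7.8 times. The KI comparisons also cross the separate value tables. Whether these differences near the floor reflect Ereg mRNA was not tested.

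Nrg1, the neuregulin that activates ErbB3 and ErbB4, was called in no comparison. The normal glands read −0.67 and −0.61, the NIC pools −1.04 and −1.02. The KI tumours 1 to 5 read −0.96, −0.87, −0.34, −0.61 and −0.84. NIC was below both other groups, and KI overlapped with normal. NIC differed from normal by −0.39 ± 0.096 SE (adjusted p = 0.0711), and by −0.47 ± 0.16 by the second probe (adjusted p = 0.124 over all probes). Another 3 probes described in the files as neuregulin 1, under other names, were outside the naming rule and were called in no comparison. They did not show the lower level in NIC. Against normal gland they differed by 0.46, 0.46 and 0.066 in NIC and by 0.61, 0.66 and 0.46 in KI. By the first and second of them, both normal glands were below every tumour sample.

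Nrg4, an ErbB4 ligand that brown fat secretes, was called lower in both kinds of tumour. The normal glands read 1.26 and 1.28. The NIC pools read 0.12 and 0.22. The KI tumours 1 to 5 read −0.0049, 0.12, 0.13, −0.083 and 0.014. Every tumour sample was at least 1 log2 unit below both normal glands, and NIC and KI overlapped. Nrg4 was 2.14-fold lower in NIC (−1.10 ± 0.10 SE, adjusted p = 0.0154) and 2.35-fold lower in KI (−1.23 ± 0.075, adjusted p = 6.8e-05) than in normal gland. Fat markers moved with it, but so did other lists. Over the 9 samples, Nrg4 correlated with the mean of the brown fat list at r = 0.98 and of the adipocyte list at 0.97. For the lymphocyte, luminal epithelial and proliferation lists r was 0.92, −0.95 and −0.98. The normal glands stood apart from all tumours in Nrg4, so these r largely set normal gland against tumour. Over the 5 KI tumours alone, where Nrg4 varied little (SD 0.089), r was 0.69 for brown fat and 0.72 for adipocytes. There it was 0.20, 0.71 and −0.38 for the lymphocyte, luminal epithelial and proliferation lists. The median of 6 brown fat genes was 3.98 and 3.35 in the normal glands and 0.038 to 0.69 in the tumours, with 4 of 6 called lower in NIC and 3 of 6 in KI. Of the 13 adipocyte genes 10 were called lower in each. Their part in the fall of Nrg4, and of Btc in NIC, was not tested.

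**Figure D3:**
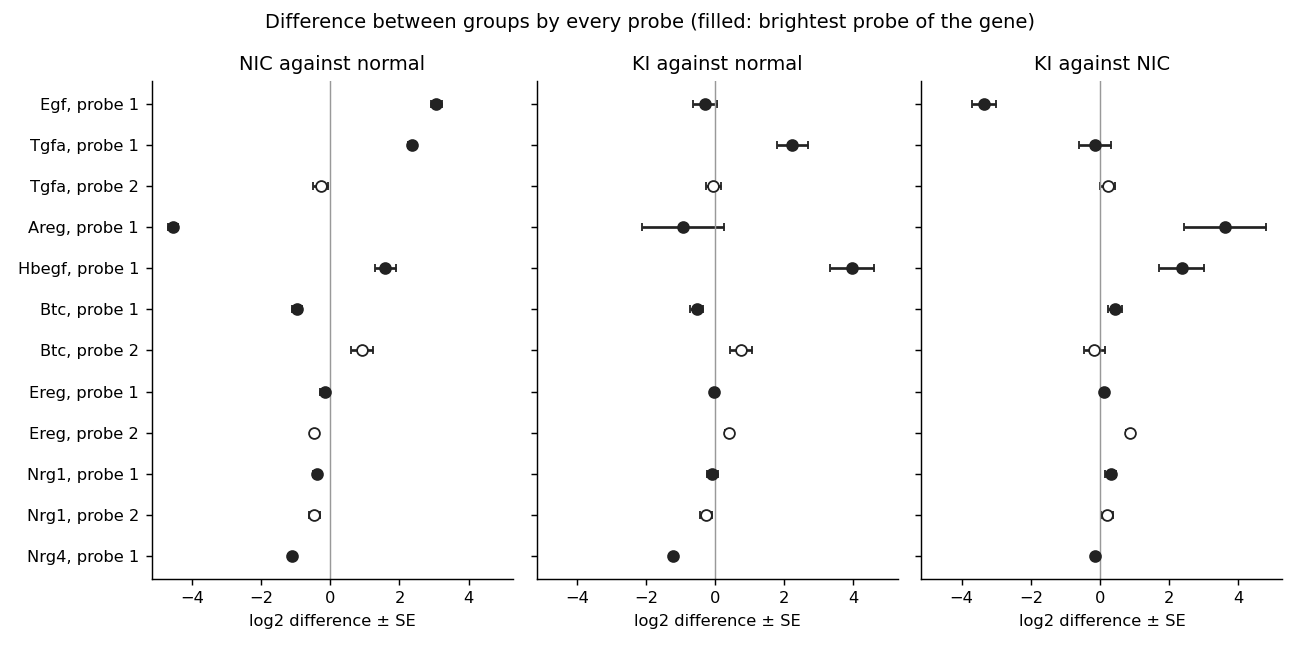
Difference between groups (log2, ± SE) for each of the 12 probes of the 8 ligands, filled for the brightest probe of a gene and open for the other. The Tgfa probes disagree in both comparisons with normal gland, and the Btc probes lie on opposite sides of 0 there.

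Of the 8 ligands, 7 did not overlap between NIC and normal, 3 between KI and normal, and 5 between KI and NIC. The shares over all genes were 71.2%, 54.1% and 31.1%. For Areg, Btc and Nrg1 the step between KI and NIC was smaller than the gap between the arrays of the KI tumour nearest to NIC. On chromosome 5, the genes that flank the ligands beside Areg were not called with it in NIC against normal. Btc, directly beside Areg, was called lower there by its brightest probe. Epgn, the ligand gene epigen next to Ereg, differed by −0.55 ± 0.16 SE in NIC against normal (adjusted p = 0.0984), and Parm1, on the far side of Btc, by 0.31 ± 0.17 (adjusted p = 0.271). Parm1 was called lower in KI, by −1.02 against normal and −1.33 against NIC (limma adjusted p = 0.0013 and 0.0041). Of the other family ligands, Nrg3 fell in KI against normal by 0.29 by its brightest probe (adjusted p = 0.0076), but a second Nrg3 probe gave a difference of only 0.018 (adjusted p = 0.839 over all probes), and Epgn was not called in any comparison.

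The genes whose levels followed a ligand most closely over the 9 RNA samples were listed for the 4 ligands that spanned at least 2 log2 units. For Areg they were Id1 (Pearson r = 0.984), Col4a1 (0.980) and Sox7 (0.977), with r between 0.967 and 0.979 over the 5 KI tumours and between 0.684 and 0.868 over the 4 without KI tumour 2. For Egf they were Cabcoco1 (0.987), Kdm5c (0.986) and C920021L13Rik (0.986). Hbegf was followed by Rapsn (0.990), Nkd2 (0.989) and Sdc1 (0.989), and Tgfa by Ckap4 (0.991), Ppp1r16a (0.988) and Klf6 (0.983). These genes were picked from all named genes for their likeness, and the 9 samples fall into 3 groups. Over the 4 KI tumours without tumour 2, also a setting chosen after seeing the data, r ran from −0.490 to 0.675 for the genes of Egf, from 0.723 to 0.901 for those of Hbegf and from 0.915 to 0.967 for those of Tgfa.

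The receptors of these ligands were compared in the same samples. Erbb2 rose in both kinds of tumour (1.79 ± 0.20 SE in NIC, adjusted p = 0.0202; 1.91 ± 0.20 in KI, adjusted p = 0.000468). The size depended on the probe: the remaining 2 Erbb2 probes read 1.82 and 0.39 higher in NIC and 3.58 and 0.36 higher in KI. Erbb3, the neuregulin receptor that pairs with ErbB2, rose by its brightest probe (1.85 ± 0.21 and 1.55 ± 0.17). Its other 4 probes differed by −0.030 to 0.85 in NIC and by −0.45 to 0.24 in KI. Egfr, to which Egf, Tgfa and Areg bind, was lower in KI (−1.20 ± 0.40, adjusted p = 0.043) and not called in NIC (−0.34 ± 0.39). Its other 5 probes ranged from −0.88 to 0.36 in KI, and 1 of them was called. Erbb4 was called in neither by its brightest probe, but 1 of its other probes was lower in KI (−0.89 ± 0.094, adjusted p = 0.000566 over all probes).

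Among 15 genes for the cutting and release of ligands, 4 rose and 1 fell in NIC, and 9 rose and 1 fell in KI. These counts use the brightest probes. Of all genes, 8.79% rose and 9.81% fell in NIC, and 17.8% rose and 24.9% fell in KI. Other probes disagreed for some genes. Adam19 rose in KI by 0.19, but its other probes read −0.37 and −0.044 there. In NIC they were called lower (−1.45 and −1.38). Cd9 rose in KI by 1.75, but its other probes gave 0.49 and −0.081, which were not called. The second Furin probe was called lower in KI (−0.49). Rhbdf2, a partner of the ligand-shedding protease ADAM17, rose by 2.67 ± 0.12 SE in NIC and 2.77 ± 0.21 in KI. Adam17 itself rose in KI (1.87 ± 0.36), as did Adam10 (1.83 ± 0.40), which sheds EGF and betacellulin. Their second probes gave 1.58 for Adam17, also called, and 0.82 for Adam10, not called. The normal glands lay apart for both genes, at −0.85 and −2.30 for Adam17 and −0.45 and −2.16 for Adam10. By their brightest probes Adam17 and Adam10 differed by 1.52 and 1.37 in NIC, where neither was called. Timp3, an inhibitor of these proteases, fell in both (−2.26 ± 0.18 and −1.48 ± 0.43). The median difference of this list was 0.49 in NIC and 0.67 in KI.

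**Figure D4:**
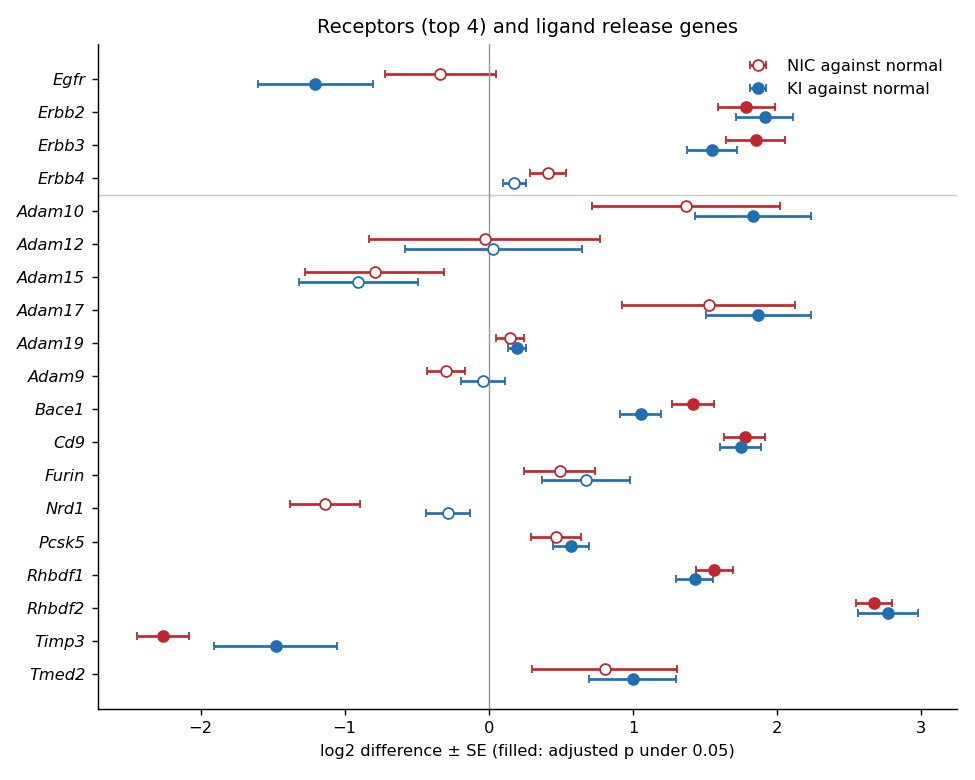
Difference from normal gland (log2, ± SE) of the 4 receptors and 15 genes of ligand release in NIC pools and KI tumours, filled where the adjusted p is under 0.05. Rhbdf2 rises most and Timp3 falls in both tumour groups.

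Among 10 genes of receptor turnover and inhibition, the EGF receptor inhibitor gene Errfi1 rose in both (1.70 ± 0.30 SE in NIC, 2.22 ± 0.32 in KI) and Cblb, a ubiquitin ligase gene, fell by its brightest probe (−0.91 and −0.94). Of the other 8, none was called in NIC, and Socs5, Rnf41 and Lrig1 rose in KI. Of 19 early targets of EGF receptor signalling, 6 rose and 1 fell in NIC, and 11 rose and 1 fell in KI. Of all genes, 18.6% were called in NIC and 42.7% in KI, in either direction. Ier3 (5.22 ± 0.40 and 4.05 ± 0.46) and the ETS factor gene Etv5 (4.68 ± 0.17 and 3.93 ± 0.30) led both groups, and Dusp1 fell in both. The other Etv5 probe rose less (1.69 and 0.65). Between KI and NIC 3 of the 19 were called (6.21% of all genes were), all higher in KI: Egr1 (1.73 ± 0.33), Atf3 (1.58 ± 0.30) and Fos (1.11 ± 0.22). Of 12 factors known to drive ligand transcription, 6 rose in each tumour group, while 2 fell in NIC and 1 in KI. Foxa1, which opens chromatin for the estrogen receptor, fell in both (−3.04 ± 0.30 in NIC, −3.91 ± 0.20 in KI). Esr1, the estrogen receptor gene, fell in NIC by its brightest probe (−0.65 ± 0.12, adjusted p = 0.0459). Its other probe was not called in NIC (−0.15 ± 0.093) but was called lower in KI (−0.29 ± 0.080, limma adjusted p = 0.0235 over all probes). Creb1, whose protein binds the CRE, rose by its brightest probe (1.29 ± 0.24 and 1.21 ± 0.15), while its other 2 probes differed by 0.020 and −0.027 in NIC and 0.45 and 0.42 in KI.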

How the data were processed

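Total RNA was amplified in a single linear round and coupled to Cy3 or Cy5, per the labels' protocols. The authors' deposited value tables hold log2 ratios, 1 column per array. The columns of the KI arrays followed the log2 ratio of sample over reference from their own scanner files, at r over probes of 0.982 to 0.988 after normexp and loess and of 0.941 to 0.953 for the ratio in the files, and the normal and NIC table was read the same way by analogy. RMA is named, without a role, in the submitters' processing notes. Scanner files of the 10 KI arrays hold spot intensities and log10 ratios (Cy5 over Cy3), written by Agilent's Feature Extraction software per the file headers. Dyes were taken from the label fields, although the labelling protocols of 7 KI arrays name the opposite dyes.

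Control spots (2256 of 43790) were left out. Spots of all arrays took their probe from the KI arrays by spot number, which assumes the same layout on the normal and NIC arrays. Probes were named through RefSeq (GRCm38.p6), and each gene was represented by its brightest probe (mean log2 signal of both channels over the KI arrays). Hbegf is called Dtr in the files, and the brightest Nrg1 probe carries an older symbol. Dye pairs, which correlated at 0.824 to 0.943, were averaged. Differences were tested with limma 3.58.1 in R 4.3.3 (lmFit, eBayes). NIC against normal was fitted on 4 RNA samples, and both KI comparisons on all 9. Labels do not say whether samples share a litter, so each p-value reflects the spread among these few samples, and their number limits the precision. The script was tested on simulated data. The 8 ligands were named with all probes; of each pathway list, called genes were named, at most 4 a list and direction by size, and the receptors always. Members and lists were chosen with earlier results of these data known. Alternatives covered dye, scaling, probe choice, signal filter, scanner normalization and leaving out each sample.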

Additional observations from a re-analysis of the deposited data

Results flagged for a closer look

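Among the 5 KI tumours, Egf in KI tumour 2 lay far from the others, at 0.931 on the log2 scale of sample over reference, where the next tumour read −0.171. The gap was 0.824 of the whole range, above the critical value of 0.71 for 5 samples. Hbegf in the same tumour lay far below the others, at −1.34 with the next tumour at 0.567 and a gap of 0.80 of the range. Chance alone marks about 1 in 20 such groups. These flags are not independent of each other: both fall on the same tumour, and Egf and Hbegf correlated at r = −0.980 over the KI tumours. The share of all genes that this rule would flag is not given here. Areg was lowest in this tumour too, but its gap did not pass the critical value.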

How the results depend on the processing

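Of 396 values of single ligands under an alternative, 345 kept their direction and their side of the threshold. In NIC against normal 6 ligands were called. This became 3 with samples labelled Cy3 alone and 3 of 4 tested among genes above the median signal, and ran from 0 to 5 when 1 sample was left out. Without either NIC pool limma called 0 of 28919 genes, with 6402 and 6977 at an unadjusted p under 0.05, so no call in that comparison holds with 1 pool. In KI against normal the count ran from 3 to 4 when 1 sample was left out. In KI against NIC 1 ligand was called; this became 2 with Cy3 alone, 3 with the RNA sample as random block, 2 with the mean over probes, 0 of 4 tested among bright genes, 3 and 2 with KI levels from scanner files (normexp and loess, own log ratio), and ran from 1 to 3 when 1 sample was left out. The cause was not tested.

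Signs turned in these cases, none of them called. In KI against normal, Areg was 0.15 with columns scaled to 1 spread, Btc 0.11 and Ereg 0.18 with the mean over probes, and Nrg1 0.070 with normexp and loess. In KI against NIC, Btc was −0.32 with Cy5 alone and Ereg −0.025 without NIC pool 1 (−0.025 to 0.26 when 1 sample was left out). Tgfa was 0.011 with Cy5 alone, 0.063 after quantile normalization, 0.039 with the mean over probes and 0.12 without KI tumour 2 (−0.37 to 0.12 when 1 sample was left out).

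Over all genes, NIC against normal called 5379, but 2041 with Cy3 alone, 10638 with the random block, 10396 in the fit of 9 samples and 3435 of 14459 bright genes. KI against normal called 12350, but 7974 after scaling and 6502 bright genes. KI against NIC called 1795 (846 higher, 949 lower), but 1085 after quantile normalization (356 higher, 729 lower), 4012 with the random block, 3713 with normexp and loess, 884 bright genes, 2878 of 41174 probes, and 507 to 2105 when 1 sample was left out. No paired analysis was possible because the groups share no replicate numbers in the labels.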
